A study of Mus musculus with 6 samples.

Results

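The miRNAs of untreated 3T3-L1 fat cells were described on 4 of the 6 arrays of the series, those titled as controls, taken on day 8 of adipogenic differentiation. 3T3-L1 is a mouse embryonic fibroblast line whose confluent cells become lipid-filled adipocytes under a hormone cocktail. Here the cocktail was isobutyl-methylxanthine, dexamethasone, insulin and rosiglitazone, followed by insulin alone and then by plain serum medium, and all 4 arrays shared this course. The other 2 arrays held cells given interleukin-6 and were not used. The labels list no genetic change, and no cytokine was added to the controls. Nothing in the labels says whether the 4 RNA samples came from separate cultures, so the spread between them may be technical. A differentiated plate of this line can also hold fibroblasts that did not convert, and fewer cells of a kind cannot be told apart from less RNA per cell.

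A miRNA is a small RNA cut from a hairpin precursor. Either strand of the hairpin, the 5p or the 3p arm, can be loaded into an Argonaute protein. The loaded strand pairs with target mRNAs mainly through its seed, bases 2 to 8, so miRNAs that share a seed form a family with overlapping targets. Neighbouring hairpins are often cut from a common transcript. In the fat cell lineage miR-143 and the miR-103, miR-26 and miR-30 families are known to favour adipogenesis, whereas let-7, miR-27, miR-130 and miR-221 are known to restrain it.

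The array carried probes for 1247 mouse miRNAs, each read by 2 to 4 different probes in the cases named here. Levels are intensities scaled to the same 75th percentile on every array, in arbitrary units, and a miRNA was detected on an array where at least 1 of its probes had a share of 0.5 or more of its spots well above background. On arrays 1 to 4, 284, 294, 268 and 287 miRNAs were detected (mean 283 ± 11.0, SD, n = 4). All 4 arrays detected 264 miRNAs (21.2%), 35 were detected on 1 to 3 arrays, and 948 (76.0%) on none. No spot was saturated. Over the 264 miRNAs, the log2 levels of any pair of arrays correlated with Pearson's r between 0.989 and 0.999, as a description across miRNAs. The median SD of a level was 0.12 on the log2 scale. Probes differ in how well they hybridise and miRNAs in how well they are labelled, so the order of signals given below is not an order of copies per cell. Because no comparison between groups was made, no test was run.

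The sequences of the brightest signals are shown because the shape of the whole profile turned on a few of them. They are RefSeq mature sequences (GRCm38.p6), with the seed in capitals, in falling order of level for the 5 brightest miRNAs, then miR-21a-5p, the brightest miRNA numbered below 1000.
miR-6366: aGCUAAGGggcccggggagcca
miR-3963: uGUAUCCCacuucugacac
miR-5100: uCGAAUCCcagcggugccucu
miR-3968: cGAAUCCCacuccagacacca
miR-5126: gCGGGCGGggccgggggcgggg
miR-21a-5p: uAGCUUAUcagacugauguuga
Their positions are chr16:18165093-18165114 (minus strand) for miR-6366, chr3:151023839-151023857 (minus) for miR-3963, chr11:60728698-60728718 (plus, within Mief2) for miR-5100, chr11:115447969-115447989 (minus, within Trim80) for miR-3968, chr1:84695890-84695911 (plus, within Dner) for miR-5126 and chr11:86584120-86584141 (minus, within the bounds of Vmp1) for miR-21a-5p.

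The summed signal was held by very few miRNAs. miR-6366 read 123482, 116556, 131879 and 124094 intensity units on arrays 1 to 4, which was 35.3% ± 0.26 (SD, n = 4) of all miRNA signal. miR-3963 read 85582, 80762, 98942 and 79733 units, a share of 24.5% ± 1.51. These were the brightest and second brightest miRNAs on every array, and together they held over 50% of the signal on each. miR-5100 (15866, 15314, 17474 and 15805 units), miR-3968 (14314, 13861, 13041 and 13182 units) and miR-5126 (11148, 10093, 10165 and 12275 units) came next on each array. The 5 brightest miRNAs held 71.5% ± 1.06 and the 10 brightest 79.7% ± 0.70. Between 31 and 34 miRNAs made up 90% of the signal, and between 154 and 163 made up 99%. From the brightest to the dimmest of the 264, which sat at the floor of the level scale, levels spanned 14.4 log2 units.

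Among the 5 brightest, miR-5100, miR-3968 and miR-3963 shared stretches of sequence, which the choice of arrays did not use. miR-5100 and miR-3968 share a run of 9 letters, CGAAUCCCA, which 2 of the 1017 miRNAs with a table sequence hold (0.197%). miR-3963 and miR-3968 share 8 letters, AUCCCACU, again held by 2 of 1017. miR-3963 and miR-5100 share 6, AUCCCA, held by 4 of 1017 (0.393%). These runs were searched on the RNA strand after the ranks were known, and they overlap each other. miR-6366 and miR-5126 held none of these runs, and miR-6366 shared at most 3 letters in a row with miR-5100, miR-3968 or miR-3963. miR-6366 and miR-5126 shared 6, GGGGCC, held by 11 of 1017 (1.08%). miR-5126 consists of G and C alone (100% GC), and miR-6366 is 72.7% GC. Their probes match short stretches of the miRNA, of 11 and 12 bases for miR-6366, 10 and 11 for miR-5126, and 15 and 16 for miR-3963, against 19 and 20 for miR-21a-5p. The probes of miR-5126 came within 1 mismatch of miR-149-3p, miR-326-5p and miR-6244.

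Probes of the same miRNA did not always give the same intensity. Over 210 miRNAs with at least 2 probes detected on all 4 arrays, the brighter probe read 1.48 times the dimmer in the median (quartiles 1.21 and 1.97), and 10 miRNAs exceeded 4-fold. miR-3968 had the widest gap, 28.2-fold, and miR-5100 had one of 8.60-fold, whereas the probes of miR-6366 differed 1.79-fold and those of miR-21a-5p 1.45-fold. A level that averages such probes rests on the brighter one.

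**Figure D1:**
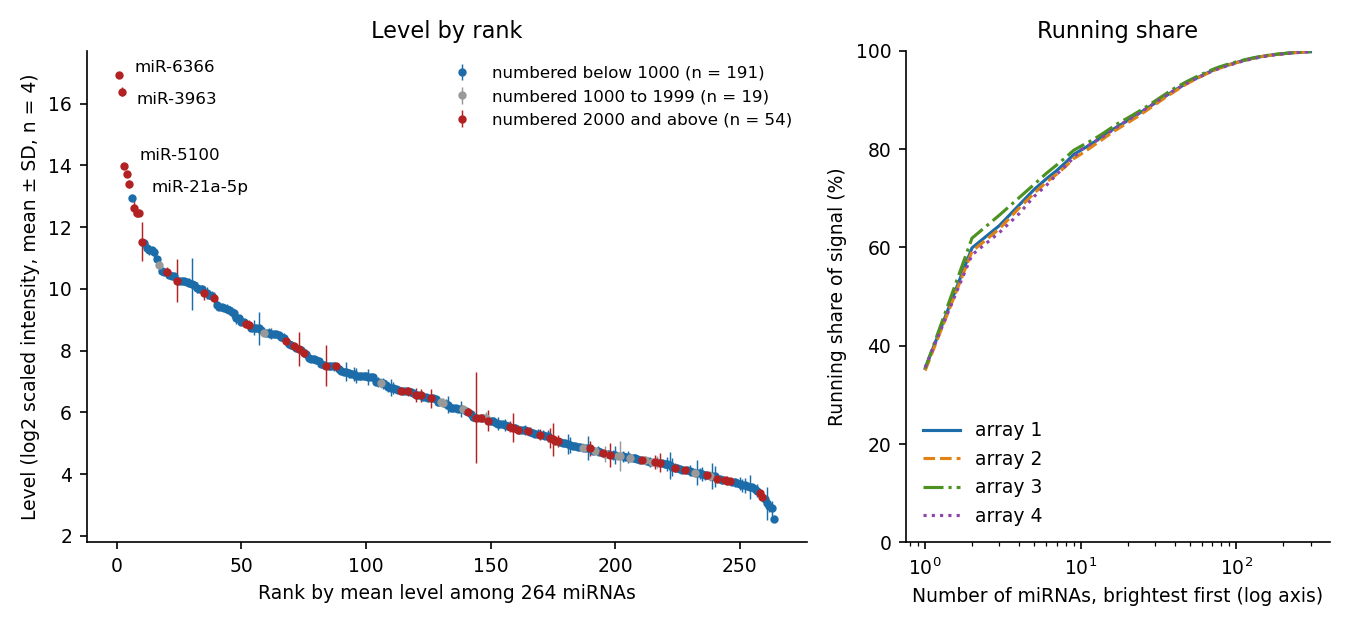
Left, mean level of each of the 264 miRNAs detected on all 4 arrays (log2 scaled intensity, bars are SD, n = 4) by rank, coloured by the miRNA's number. Right, running share of the signal on each array (log axis for the number of miRNAs), where the 10 brightest hold 79.7% on average and the 4 lines nearly coincide.

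miRNA numbers are given in order of registration, so the number separates miRNAs known early from those added later. Of the 327 miRNAs on the array numbered 2000 and above, 54 were detected on all 4 arrays (16.5%), and they held 79.9% ± 0.86 (SD, n = 4) of the signal. Of the 798 numbered below 1000, 191 were detected (23.9%), and these and their silent relatives held 19.3% ± 0.84. The 122 numbered 1000 to 1999 held 0.852% ± 0.139, with 19 detected. Within the late class, those numbered 5000 and above held 48.3% ± 1.37 (28 of 177 detected), and those numbered 2000 to 4999 held 31.6% ± 1.25 (26 of 150 detected). The median level of detected miRNAs was 6.51 (log2) below 1000 and 5.93 from 2000 upward, so the late class owed its share to its few brightest members. Detected miRNAs of the late class had a median GC content of 64.1% (38 with a sequence), against 52.2% for its silent ones (225 with a sequence). Below 1000 the medians were 47.7% (158) and 45.5% (478).

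After the 5 brightest, miR-5109 read 5889, 5476, 6411 and 7923 units, with array 4 the highest. miR-3960 read 5792, 5188, 5351 and 6128 units, and miR-5097 read 5674, 5361, 5776 and 5559 units, an SD of 0.05 on the log2 scale. miR-6243 read 2262, 2307, 2580 and 5702 units, so its place among the 10 brightest by mean rested on array 4. miR-1224-5p (1366 to 2257 units) and miR-3102-5p (1294 to 1726 units) were the remaining miRNAs numbered 1000 and above among the 20 brightest. Of the 20 brightest miRNAs of each array, 17 were shared by all 4 arrays.

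Among miRNAs numbered below 1000, miR-21a-5p stood alone at the top. This miRNA is abundant in many cultured cells and is known to promote adipogenic differentiation of mesenchymal cells. It read 7659, 7562, 8437 and 7820 units, or 12.94 ± 0.07 (log2, SD, n = 4), and ranked 6 or 7 on every array. Next came miR-199a-3p, a miRNA of mesenchymal cells, at 2951, 2984, 3059 and 2433 units, with array 4 the lowest. let-7a-5p read 2726, 2916, 2462 and 2270 units, and let-7f-5p read 2575, 2811, 2303 and 2215 units. Arrays 1 and 2 lay above arrays 3 and 4 for both.

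miR-23a-3p read 2568, 2510, 2525 and 2131 units. miR-125b-5p, which marks fibroblast-like cells, read 2539, 2376, 2425 and 2024 units. miR-103-3p, a regulator of insulin sensitivity, read 1991, 2070, 2083 and 1800.4 units. Array 4 was the lowest for each of these. In the order of mean levels, miR-199a-3p, let-7a-5p, let-7f-5p, miR-23a-3p and miR-125b-5p lay between 11.47 and 11.19 (log2) with SDs of 0.13 to 0.16. Since array 4 was low for several of them, neighbours in that order were also compared within each array. miR-199a-3p lay above let-7a-5p by 0.14 ± 0.12 (log2, SD, n = 4), let-7a-5p above let-7f-5p by 0.07 ± 0.03 and miR-23a-3p above miR-125b-5p by 0.06 ± 0.03, each on 4 of 4 arrays. let-7f-5p and miR-23a-3p, 0.02 ± 0.12 apart, kept their order on 3 of 4 arrays. miR-21a-5p lay 1.47 ± 0.15 above the next on 4 of 4.

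The remaining miRNAs of the 20 brightest numbered below 1000 lay between 10.58 and 10.03 (log2). These were let-7c-5p (1381 to 1717 units), miR-24-3p (1397 to 1618), miR-22-3p (1321 to 1519), miR-29a-3p (1293 to 1444), miR-199b-5p (1237 to 1456), let-7i-5p (1119 to 1306), miR-26a-5p (1175 to 1244), miR-107-3p (1089 to 1280.3), miR-199a-5p (1074 to 1278), miR-211-3p (1055 to 1356), miR-27a-3p (1051 to 1241), let-7d-5p (896 to 1187) and miR-494-3p. The steadiest of them was miR-26a-5p, with an SD of 0.03. The least steady was miR-494-3p, which read 822, 733, 1069.7 and 2687 units, and without array 4 its level moved from 10.16 ± 0.85 to 9.74 ± 0.27.

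**Figure D2:**
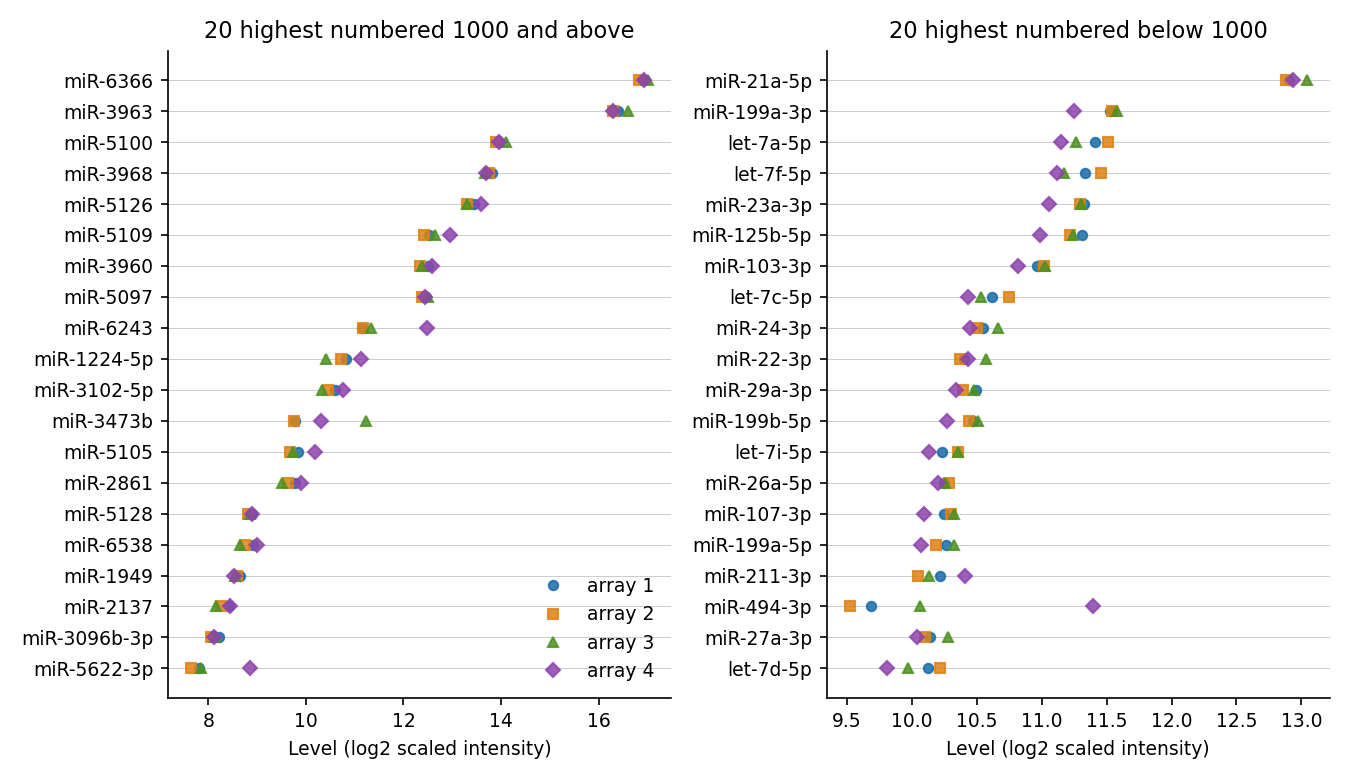
Level on each array (log2 scaled intensity; 1 point per array) of the 20 highest miRNAs numbered 1000 and above (left) and below 1000 (right). Most points of a miRNA overlap, with array 4 apart for miR-6243 and miR-494-3p and array 3 apart for miR-3473b.

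Grouping by seed ordered the early-numbered signal into families, whose shares are given as percent of the signal of miRNAs numbered below 1000. A miRNA without a RefSeq table sequence was counted alone, so that a family's share covers the members with a sequence there and can leave out relatives. The let-7 sequences are shown because this family held the largest share, and because its members differ by few bases outside the common seed, in capitals.
let-7a-5p: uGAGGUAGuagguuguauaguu
let-7f-5p: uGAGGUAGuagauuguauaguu
let-7c-5p: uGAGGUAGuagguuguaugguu
let-7i-5p: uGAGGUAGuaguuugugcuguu
let-7d-5p: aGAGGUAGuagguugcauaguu
let-7b-5p: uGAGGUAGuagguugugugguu
let-7g-5p: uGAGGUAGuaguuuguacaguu
let-7e-5p: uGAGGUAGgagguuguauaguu
miR-98-5p: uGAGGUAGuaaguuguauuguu
let-7, whose members oppose proliferation and rise as many cells differentiate, held 17.2%, 18.6%, 15.6% and 15.6% on arrays 1 to 4 (mean 16.7% ± 1.43, SD, n = 4). Of its 10 members on the array 9 were detected on all 4 arrays, and let-7k on none. let-7a-5p gave 22.9% ± 0.42 of the family's signal. After let-7a-5p, let-7f-5p and let-7c-5p came let-7i-5p at 10.27 ± 0.11 (log2), let-7d-5p at 10.03 ± 0.18, let-7b-5p at 10.01 ± 0.10, let-7g-5p at 9.33 ± 0.12, let-7e-5p at 9.25 ± 0.18 and miR-98-5p at 6.80 ± 0.14. The probes of let-7a-5p matched let-7c-5p, let-7d-5p, let-7e-5p and let-7f-5p with 1 mismatch, and those of let-7f-5p matched let-7a-5p, so the split of signal between members is uncertain. With another background correction, normexp with an offset of 50, the family share was 10.2%. That offset gives signal to silent miRNAs too, which by itself lowers the share of a bright family.

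The leads of the other large families are shown next, since they name the seeds that carried most of the remaining early-numbered signal.
miR-103-3p: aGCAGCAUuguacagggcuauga
miR-107-3p: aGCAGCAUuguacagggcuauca
miR-199a-3p: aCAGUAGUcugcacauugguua
miR-125b-5p: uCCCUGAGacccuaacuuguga
miR-29a-3p: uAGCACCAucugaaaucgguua
miR-23a-3p: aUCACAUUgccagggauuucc
miR-322-5p: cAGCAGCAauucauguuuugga
miR-16-5p: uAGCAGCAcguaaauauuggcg
miR-26a-5p: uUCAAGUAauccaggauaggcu
miR-24-3p: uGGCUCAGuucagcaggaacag
The seed of miR-21a-5p held 11.7% ± 0.52, and all of it came from miR-21a-5p, since its seed relative miR-21c was detected on no array. The miR-103 and miR-107 pair, hosted in the pantothenate kinase genes Pank3 and Pank2 (miR-103) and Pank1 (miR-107), held 4.73% ± 0.19, of which 62.1% ± 0.16 read as miR-103-3p. The mature sequences of this pair lay within 1 mismatch of each other's probes, so that split too is uncertain. Among the miRNAs with a table sequence miR-199a-3p was alone with its seed, at 4.23% ± 0.31. The miR-125 family, at 4.09% ± 0.30, was led by miR-125b-5p, with miR-125a-5p at 8.68 ± 0.15 (log2) and miR-351-5p at 3.63 ± 0.20.

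The miR-29 family, known for targeting collagen and other matrix mRNAs, held 3.60% ± 0.11, with miR-29a-3p at 10.43 ± 0.07, miR-29b-3p at 9.42 ± 0.08 and miR-29c-3p at 8.52 ± 0.05 (log2). miR-29a-3p and miR-29c-3p lay within 1 mismatch of each other's probes. miR-23a-3p held 3.60% ± 0.22. Members with the seed of miR-15 and miR-16, which restrain cell cycle genes, held 3.49% ± 0.32. In this family miR-322-5p (9.85 ± 0.19) lay above miR-16-5p (9.49 ± 0.16) and miR-15b-5p (8.74 ± 0.25), and 5 of its 6 members were detected. miR-26, hosted in the Ctdsp phosphatase genes, held 2.36% ± 0.07, with miR-26a-5p at 10.24 ± 0.03 and miR-26b-5p at 8.56 ± 0.15. miR-24-3p held 2.21% ± 0.09. These 10, the largest by this count, together held 56.7% of the early-numbered signal. When miRNAs without a table sequence were instead joined by number and arm to a family, a grouping chosen after seeing the data, miR-23a-3p with miR-23b-3p held 3.87% ± 0.23. In that grouping miR-199a-5p with miR-199b-5p held 3.79% ± 0.16, the seventh largest share, and the 10 largest together held 58.6%. No miRNA was joined to the other 9 families above, so their shares could not change.

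With the normexp background each of these 10 shares was lower (6.78% for miR-21a-5p, 2.82% for miR-103 with miR-107, 2.48% for miR-199a-3p and 1.32% for miR-24-3p). Its offset by itself lowers such shares. The setting also started from another input, the mean signal and median background of each spot. The parts of these changes were not separated, so no conclusion about the families is drawn from the fall. Among the next families, miR-494-3p held 1.21%, 1.08%, 1.54% and 4.15% on arrays 1 to 4, so its mean of 2.00% rested on array 4. miR-22-3p held 2.06% ± 0.11 and miR-199b-5p, counted alone, 2.03% ± 0.08, beside 1.76% ± 0.08 for miR-199a-5p.

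The families further down, named after their values were seen, each held under 2% on average. The miR-130 seed, which targets Pparg, held 1.89% ± 0.10, of which 80.3% ± 1.36 was miR-130a-3p, and miR-130b-3p and miR-130c were silent. miR-27a-3p with miR-27b-3p held 1.80% ± 0.08, with 92.8% ± 0.18 of it read as miR-27a-3p. Each lay within 1 mismatch of the other's probes, so that split is uncertain. miR-221-3p with miR-222-3p, which favour proliferation of preadipocytes, held 1.45% ± 0.06. miR-210-3p, the miRNA induced by low oxygen, held 1.32% ± 0.11, and the brown fat miRNA miR-365-3p held 1.29% ± 0.10. miR-193a-3p with miR-193b-3p, which share the miR-365 loci, held 1.13% ± 0.05. The miR-99 and miR-100 seed held 1.15% ± 0.05 with all 3 members detected, and the miR-148 and miR-152 seed 1.05% ± 0.05 with 3 of 3.

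The pro-adipogenic miR-30 seed held 1.12% ± 0.02, from miR-30a-5p, miR-30c-5p and miR-30e-5p, while miR-384-5p was silent. miR-30b-5p at 8.42 ± 0.16 and miR-30d-5p at 7.67 ± 0.10 (log2), which were counted alone, were detected too, and joined by name the 5 detected miR-30 miRNAs and miR-384-5p held 1.93% ± 0.02. miR-143-3p held 0.990% ± 0.056. The growth-promoting seed of miR-17 and miR-106b held 0.951% ± 0.020 with 5 of 5 members detected, led by miR-106b-5p with 32.6% ± 1.66 of it, so no member dominated. miR-146b-5p gave nearly all of its seed's 0.981% ± 0.067, since miR-146a-5p contributed under 1% of it. miR-10b-5p likewise gave 95.8% ± 0.29 of the 0.827% ± 0.083 that it shared with miR-10a-5p. That split is uncertain, since each lay within 1 mismatch of the other's probes. miR-378a-3p held 0.719% ± 0.010. miR-690 held 0.460%, 0.439%, 0.821% and 0.922% on arrays 1 to 4, so that arrays 3 and 4 lay above arrays 1 and 2.

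**Figure D3:**
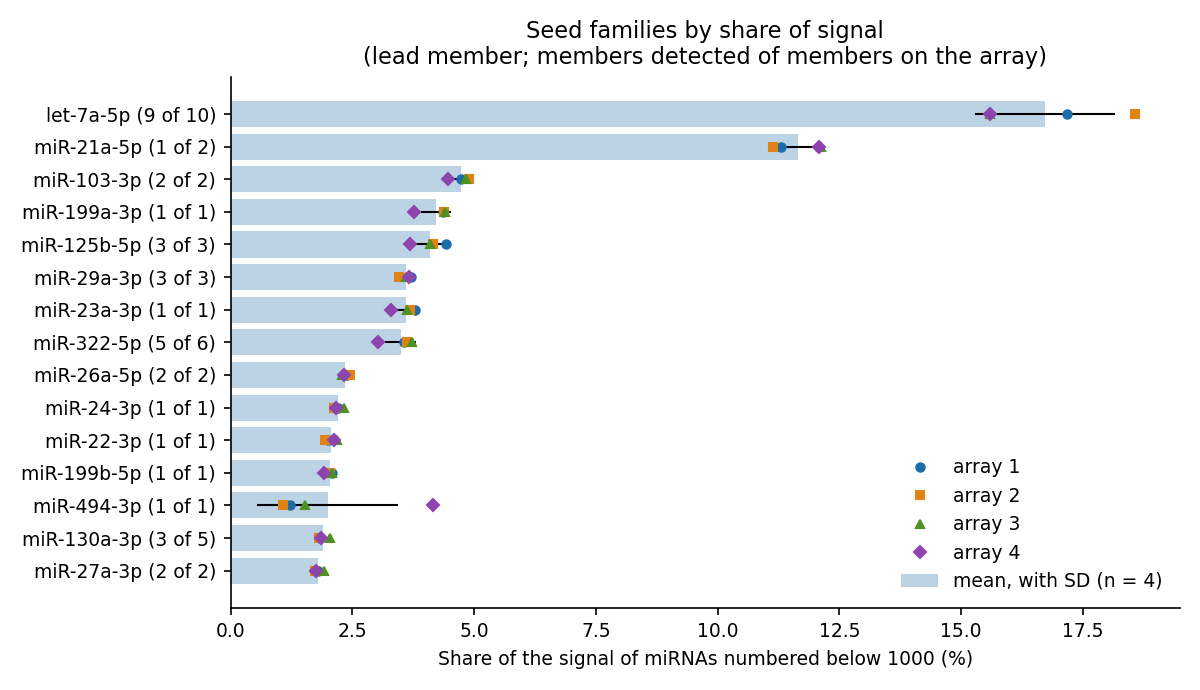
Share of the signal of miRNAs numbered below 1000 held by the 15 largest seed families, with miRNAs lacking a table sequence counted alone (bars are means, lines are SD, n = 4, points are arrays; lead member named, with members detected of members on the array). let-7 at 16.7% and miR-21a-5p at 11.7% stand above the rest, none of which exceeds 4.73% on average.

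First bases were counted in the RefSeq sequences, because Argonaute proteins are known to hold the first base of the guide and to favour U or A there. Among miRNAs numbered below 1000, 71 of 158 detected ones began with U (44.9%), against 155 of 478 silent ones (32.4%). A went the other way, at the start of 41 detected ones (25.9%) and 150 silent ones (31.4%). Of the 48 brightest of them, 44 had a sequence and 27 of these began with U (61.4%), 11 with A, 5 with C and 1 with G. From 2000 upward the order differed, with U at the start of 9 of 38 detected miRNAs (23.7%), against 93 of 225 silent ones (41.3%). U was thus less frequent among the detected miRNAs of this class, the reverse of those below 1000. G stood at the start of 14 detected ones (36.8%) and 38 silent ones (16.9%).

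Both arms of 422 hairpins had probes. In 28 of them both arms were detected on all 4 arrays, in 63 the 5p arm alone, in 51 the 3p arm alone, and in 258 neither arm on any array. The other 22 hairpins had an arm detected on 1 to 3 arrays. Hairpins at both ends of the range and near its middle are shown, as RefSeq precursor sequences with the 5p and 3p arms in capitals, 5p first.
Mir21a: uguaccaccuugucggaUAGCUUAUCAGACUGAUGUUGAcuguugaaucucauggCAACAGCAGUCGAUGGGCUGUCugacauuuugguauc
Mir322: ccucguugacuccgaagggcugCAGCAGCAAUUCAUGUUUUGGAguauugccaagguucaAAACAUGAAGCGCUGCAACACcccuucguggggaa
Mir652: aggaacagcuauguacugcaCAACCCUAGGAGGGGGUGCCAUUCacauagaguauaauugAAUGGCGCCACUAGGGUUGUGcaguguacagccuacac
Mir199a-1: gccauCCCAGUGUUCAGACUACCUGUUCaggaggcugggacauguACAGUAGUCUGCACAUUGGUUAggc
Mir22: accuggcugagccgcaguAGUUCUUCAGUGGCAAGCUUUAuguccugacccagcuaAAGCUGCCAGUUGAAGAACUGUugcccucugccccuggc
Mir214: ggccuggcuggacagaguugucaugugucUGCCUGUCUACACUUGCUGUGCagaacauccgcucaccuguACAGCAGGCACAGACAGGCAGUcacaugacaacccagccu
Mir23a: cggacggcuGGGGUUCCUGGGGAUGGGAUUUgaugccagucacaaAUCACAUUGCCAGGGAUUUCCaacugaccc
They lie at chr11:86584067-86584158 (Mir21a), chrX:53054255-53054349 (Mir322), chrX:142739000-142739097 (Mir652), chr9:21496495-21496564 (Mir199a-1, within Dnm2), chr11:75463716-75463810 (Mir22), chr1:162223368-162223477 (Mir214, within Dnm3 and its antisense transcript Dnm3os) and chr8:84208518-84208592 (Mir23a), in GRCm38.p6.

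Among the 28 hairpins with both arms, the 5p arm was brighter on all 4 arrays in 16 and the 3p arm in 12, and no hairpin changed sides between arrays. The arms differed by 2.69 log2 units in the median, with 19 hairpins over 4-fold and 8 over 16-fold apart, while the median SD of the difference was 0.13. miR-21a had the widest gap. Its 5p minus 3p difference was 8.35, 8.47, 8.57 and 8.10 on arrays 1 to 4 (8.37 ± 0.20, SD, n = 4), and its 5p arm gave 99.7% ± 0.04 of the hairpin's signal. The 3p arm, miR-21a-3p, read 23.4, 21.4, 22.3 and 28.6 units.

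miR-3102 (6.75 ± 0.23), miR-322 (5.39 ± 0.15), miR-99b (4.64 ± 0.21), miR-30a (3.89 ± 0.04) and miR-466i (3.66 ± 0.48) followed on the 5p side. The probes of miR-3102-5p match only 12 and 13 bases and came within 1 mismatch of miR-1934-3p. On the 3p side, miR-143 differed by -5.54 ± 0.10 (5p minus 3p, log2), with miR-143-3p at 624.6 to 733 units and miR-143-5p at 13.4 to 14.9. miR-193a (-5.43 ± 0.09), miR-214 (-5.16 ± 0.06), miR-22 (-5.13 ± 0.14), miR-378a (-3.50 ± 0.03) and miR-362 (-1.85 ± 0.13) were the others. miR-214 is cut from the transcript Dnm3os and is a mesenchymal miRNA, and miR-378a is hosted in Ppargc1b, a coactivator gene of mitochondrial biogenesis.

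The arms lay nearest to equal in miR-652, miR-17, miR-140 and miR-199a. miR-652 differed by 0.50, 0.51, 0.33 and 0.57 (0.48 ± 0.10), in favour of the 5p arm, and with the brightest probe of each arm in place of the mean the difference was 0.07. miR-17 differed by -0.68 ± 0.18, with miR-17-5p at 4.02 ± 0.18 (log2) and miR-17-3p at 4.71 ± 0.06, and with the normexp background it differed by -0.07. The probes of miR-17-5p match only 12 and 13 bases and came within 1 mismatch of miR-20a-5p and miR-20b-5p. Both arms of miR-17 were dim, so which arm is the more abundant is uncertain. For miR-140 the difference was -0.72 ± 0.06. In miR-199a both arms were bright, at 10.21 ± 0.11 for the 5p and 11.47 ± 0.15 for the 3p arm, a difference of -1.26 ± 0.07. That difference leaves out miR-199b-5p, which had no table sequence and read 10.42 ± 0.10 (log2). Whether the probes of miR-199a-3p also read the 3p arm of miR-199b could not be checked. The value is therefore a ratio of these signals and not a settled arm ratio of the miR-199a hairpins. The normexp background adds its offset to both arms, which by itself pulls their ratio toward equality. With it the arms lay closer in all 16 hairpins named so far, for example at 6.47 for miR-21a, 3.49 for miR-322, -3.08 for miR-143 and -2.51 for miR-214. The part of the offset in this shift was not separated from that of the changed input, so no conclusion about the hairpins is drawn from it.

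**Figure D4:**
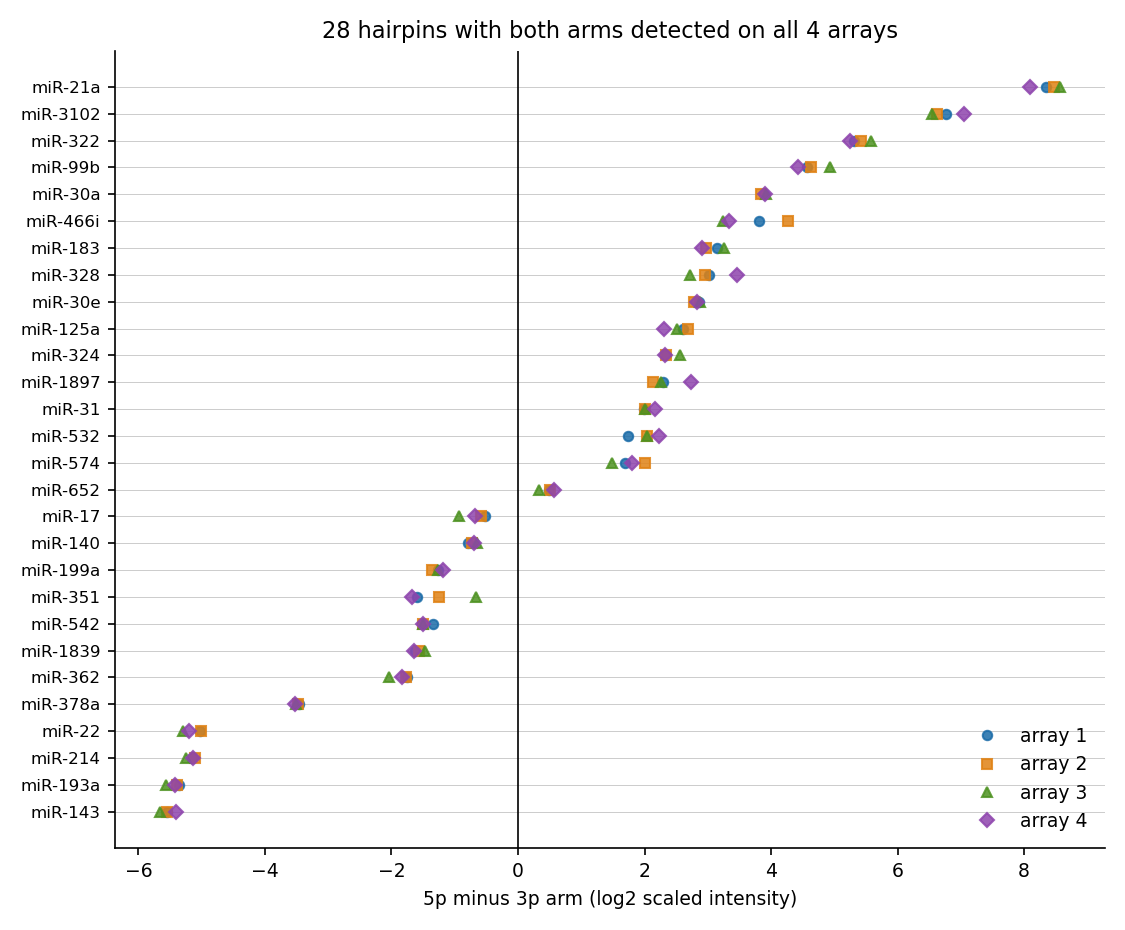
Difference between the 5p and the 3p arm (log2 scaled intensity, 1 point per array) for the 28 hairpins with both arms detected on all 4 arrays. In 16 hairpins all points lie to the right of 0 and in 12 all lie to the left, from 8.37 for miR-21a to -5.54 for miR-143.

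Where 1 arm was not well above background on any array, the ratio is a lower bound, set against the dimmest detected probe of each array. Of 114 such hairpins, 110 gave a bound of at least 1, with a median of at least 6.82-fold. The widest were miR-23a (3p arm at least 211-fold higher), miR-1224 (5p arm at least 152-fold), miR-29a (3p arm at least 119-fold), let-7i (5p arm at least 107-fold), miR-107 (3p arm at least 105-fold) and miR-211 (3p arm at least 102-fold). For miR-23a the 5p arm was on no array well above background while miR-23a-3p read 2131 to 2568 units. The probes of miR-1224-5p match only 10 and 11 bases and came within 1 mismatch of miR-5110 and miR-705. Those of miR-211-3p match 12 and 13 bases, against 17 and 18 for miR-23a-3p. Over 110 hairpins with 1 arm brighter or alone and both sequences known, the brighter arm began with U in 50 and the other arm in 28. The brighter arm began with C in 15 and the other in 38, whereas A began 28 and 30 and G began 17 and 14.

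Genomic neighbours were grouped from the positions of 630 hairpins, where at least 3 hairpins lay on the same strand with gaps of at most 10 kb. This gave 18 clusters with 122 hairpins. Arms were counted where the RefSeq table lists them. By this count an arm was detected on all 4 arrays in 11 clusters, and in 6 others every arm was silent on all 4 arrays. Adding 9 arms found by the hairpin's name, of which 3 were detected (miR-532-5p, miR-23b-3p and miR-487b-3p), left both of these counts as they were. Over all miRNAs on the array, 21.2% were detected on all 4 arrays and 76.0% on none. A cluster with many arms can therefore hold a detected arm without standing out. The clusters described in most detail were chosen for having the most detected arms. Some mature miRNAs, such as miR-19b-3p, miR-24-3p and let-7a-5p, come from more than 1 locus, so their signal cannot be assigned to a single cluster.

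The cluster of miR-322, miR-503, miR-450 and miR-542 (chrX:53047997-53054349, minus strand) had 7 of 11 arms detected. Members of this cluster are known to promote adipogenesis (miR-450a) and to halt the cell cycle (miR-322 and miR-503). The levels fell from miR-322-5p at 9.85 ± 0.19 (log2) through miR-450a-5p at 6.98 ± 0.08, miR-503-5p at 6.11 ± 0.25 and miR-542-3p at 5.42 ± 0.16 to miR-450b-3p at 3.68 ± 0.21. The miR-17 to miR-92 cluster (chr14:115043671-115044506, plus strand), a promoter of cell growth, also had 7 of 11 arms detected. Here miR-19b-3p was highest (372 to 392 units), followed by miR-20a-5p (162 to 193), miR-92a-3p (100.8 to 113), miR-19a-3p (60.4 to 62.4), miR-18a-5p (31.7 to 33.0), miR-17-3p (25.1 to 27.6) and miR-17-5p (13.6 to 18.0).

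The 2 brightest clusters were those of let-7 and miR-23a. let-7a-5p, let-7f-5p and let-7d-5p lie together at chr13:48536012-48538272 (minus strand), and the cluster's arms held 9.08% ± 0.92 of the early-numbered signal. The fourth detected arm there, let-7a-1-3p, sat at the floor of the level scale. miR-23a, miR-27a and miR-24-2 (chr8:84208518-84208921, plus strand) held 7.57% ± 0.29, with miR-23a-3p at 11.24 ± 0.13, miR-24-3p at 10.54 ± 0.09, miR-27a-3p at 10.14 ± 0.10 and miR-24-2-5p at 5.83 ± 0.10 (log2). miR-27 is known to lower Pparg, the master regulator of adipogenesis.

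miR-182, miR-96 and miR-183 (chr6:30165918-30169737, minus strand), best known from sensory cells, gave 4 of 6 arms. miR-96-5p read 373, 366, 435 and 325 units, miR-182-5p 165, 168, 181 and 159, and miR-183-5p 115, 112, 138 and 87.4. The cluster of miR-500, miR-501, miR-362, miR-188 and miR-532 within Clcn5 (chrX:7237683-7248497, minus strand) gave 5 of 9 arms in the table, from miR-188-5p at 6.94 ± 0.17 and miR-500-3p at 6.70 ± 0.04 to miR-532-3p at 2.88 ± 0.23 (log2). miR-532-5p, added by name, was detected as well, at 4.89 ± 0.07.

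miR-106b, miR-93 and miR-25 within Mcm7 (chr5:138165321-138165818, minus strand) had 3 of 6 arms, at 7.71 ± 0.06, 7.17 ± 0.07 and 7.14 ± 0.07 (log2). Its paralogous cluster on chrX (chrX:52741693-52742567, minus strand) gave 3 of 10 arms, of which miR-19b-3p and miR-92a-3p also come from the chromosome 14 cluster, and the third was miR-20b-5p (84.3 to 98.5 units). In the cluster of miR-23b, miR-27b and miR-24-1 on chromosome 13, 2 of 5 arms in the table were detected, and miR-23b-3p, added by name, read 193, 187, 183 and 164 units.

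The clusters with every counted arm silent were those of miR-302 (9 arms, chr3:127545228-127545807), of miR-200a, miR-200b and miR-429 (6 arms, chr4:156053905-156055750), and of miR-291b to miR-295 (8 arms, chr7:3219482-3220841). Also silent were those of miR-344 (5 arms, chr7:61726249-61742425), and a pair on chrX with 26 and 4 arms of testis miRNAs. The grouping held no hairpin of miR-290, miR-291a or miR-292 beside miR-291b to miR-295, so silence there is stated only for the counted hairpins. miR-290-5p was detected on all 4 arrays (40.8 to 49.4 units) and miR-292-5p on fewer. The large imprinted block of chromosome 12 between Dlk1 and Dio3 was nearly silent. Of the 66 arms in the table of its 36-hairpin cluster (chr12:109709060-109747960), 2 were detected on all 4 arrays and 63 on none. These 2 were miR-494-3p, described above, and miR-3072-5p (78.4 to 111 units). With 4 arms added by name, 3 of 70 were detected, the third being miR-487b-3p at 12.3, 10.6, 11.0 and 11.4 units. miR-370-3p, from a neighbouring cluster in Rian, read 14.7, 13.8, 14.3 and 25.1 units.

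Lists of miRNAs tied to fat cells and to other cell types were read against the 21.2% of all miRNAs on the array that were detected on all 4 arrays. The lists were written from general knowledge with earlier results of these data known, so their shares only describe the arrays. Of 22 mesenchymal and fibroblast miRNAs on the array, 22 were detected, with 7.89% ± 0.36 of the signal. Of 26 pro-adipogenic miRNAs 24 were detected, with 5.24% ± 0.20 of the signal, and the silent ones were miR-204-5p and miR-375-3p. Of 27 anti-adipogenic miRNAs 22 were detected, with 5.68% ± 0.53. Members of both of these last lists thus stood side by side on day 8, led by miR-21a-5p and miR-103-3p on the former and by let-7a-5p and let-7f-5p on the latter. Of 18 miRNAs tied to brown and beige fat 11 were detected, with 0.966% ± 0.060. They were led by miR-365-3p at 9.77 ± 0.15 and miR-193a-3p at 9.04 ± 0.10 (log2), while miR-203-3p, miR-196a-5p and miR-133a-3p were silent.

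The lists of other cell types differed in the share of their members detected on all 4 arrays. Against the 21.2% of all miRNAs, this share was 0% for muscle and for blood, 5.26% for the pluripotent list and 6.90% for male germ cells. It was 22.2% for liver, gut and pancreas, 27.3% for neural cells, 33.3% for endothelium and 36.4% for epithelium. None of 7 skeletal and heart muscle miRNAs and none of 7 blood and immune miRNAs was detected on any array. miR-1a-3p averaged 0.106 units, miR-133a-3p 0.905, miR-142-3p 1.37 and miR-142-5p -0.723, where a negative value means below the fitted background. The summed signal of the muscle list was 1.93 to 3.39 units per array and that of the blood list 4.52 to 5.82. The endothelial miR-126-3p averaged 0.643 units and miR-126-5p 1.05. The third entry of that list, miR-143-3p, was detected, and it is also a fibroblast and muscle miRNA.

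Of 11 neural miRNAs 3 were detected, miR-212-3p (159 to 166 units), miR-219-5p (28.3 to 30.9) and miR-128-3p (16.7 to 18.6), while the defining miR-124-3p averaged -1.10 units and miR-9-5p 1.05. Of 11 epithelial miRNAs 4 were detected. These were the miR-182 cluster members named above and miR-205-5p (6.12 ± 0.07, log2), while miR-200c-3p averaged -0.221 units and miR-141-3p 0.346. Of 9 liver, gut and pancreas miRNAs, miR-194-5p (20.8 to 23.7 units) and miR-192-5p (17.9 to 23.2) were detected, and the liver miRNA miR-122-5p averaged 0.633. Of 29 male germ cell miRNAs miR-34b-5p (83.2 to 95.2 units) and miR-34c-5p (59.4 to 73.7) were detected. Of 19 pluripotent and early embryo miRNAs miR-290-5p (40.8 to 49.4 units) was detected on all 4 arrays and miR-292-5p on fewer, while miR-294-3p averaged 2.88 units and miR-302a-3p 0.450. Of 41 miRNAs of the imprinted Dlk1-Dio3 region 3 were detected on all 4 arrays.

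**Figure D5:**
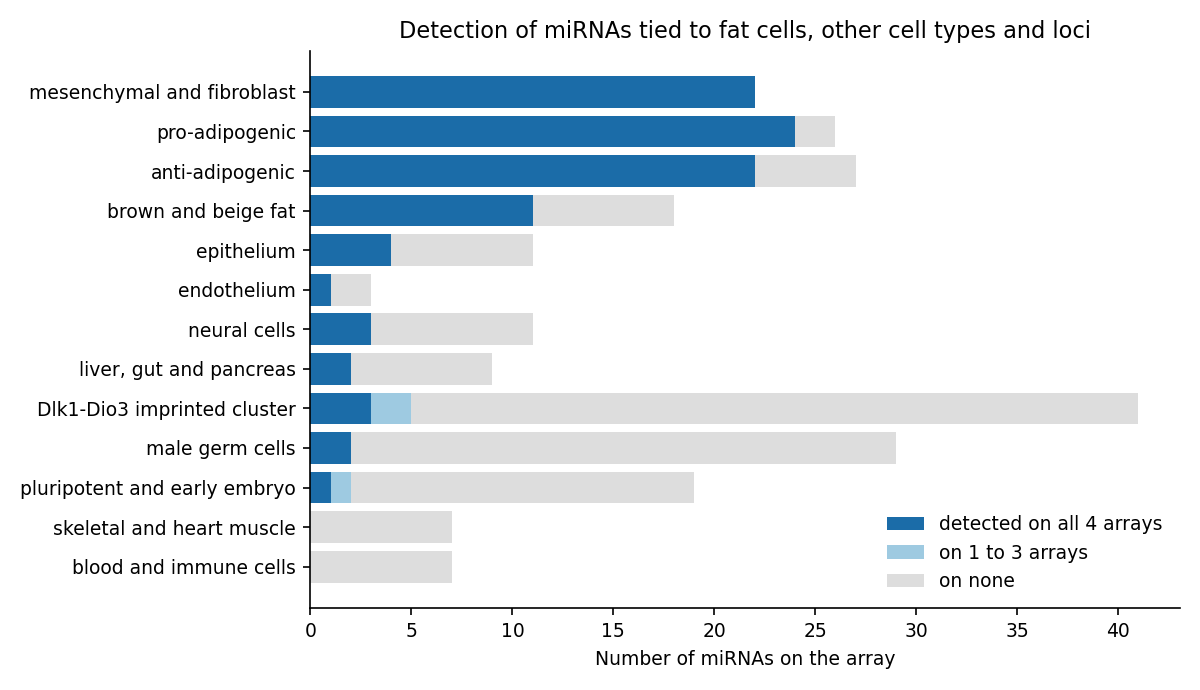
Number of miRNAs of each list on the array that were detected on all 4 arrays, on 1 to 3, or on none. The mesenchymal list is filled completely (22 of 22), and the muscle and blood lists have no detected member. The lists were written with earlier results of these data known.

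The silent miRNAs formed a narrow group. The mean signal over 4 arrays of the 948 miRNAs detected on none ran from -2.06 to 9.11 units, with a median of -0.366 and quartiles of -0.858 and 0.716. It was below 0 for 580 of them, and 16 lay above 5.83 units, the floor set for levels. A miRNA not well above background can still be present below what these probes report.

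Spread between the arrays was small for most miRNAs and large for a few. Apart from miR-494-3p and miR-6243, the widest SDs belonged to miR-5121, miR-3473b, miR-3473a and miR-5622-3p. miR-5121, whose sequence lies within the bounds of the ribosomal protein gene Rpl13a and of the small nucleolar RNA Snord33 (chr7:45126925-45126945), read 26.1, 30.6, 53.3 and 243.7 units, so it was highest on array 4 (5.83 ± 1.47, log2). Without array 4 it stood at 5.11 ± 0.54. miR-3473b read 880.0, 859.6, 2389.8 and 1273 units and miR-3473a 135, 126, 343 and 190.1, both highest on array 3. A probe target of miR-3473b is also found whole in miR-3473a. miR-5622-3p read 225, 199, 231 and 463 units, again highest on array 4.

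Array 4 was the lowest of the 4 for 113 of the 264 miRNAs and the highest for 84, and array 3 was the highest for 85. The level on array 4 minus the mean of the others correlated with GC content across 211 miRNAs with a sequence (r = 0.26, Spearman's rho 0.43, a description across miRNAs that share the same 4 arrays). The 4 arrays sat in different columns of the slide, so an array and its column cannot be told apart, and the part of either in these differences was not tested.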

How the data were processed

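Cy3-labelled total RNA was hybridised to Agilent mouse miRNA arrays in 1 colour. The scans were quantified with Agilent Feature Extraction 10.10.1.1, per the submitters' processing notes. The intensity values deposited by the authors had, per the file headers, a fitted background subtracted, so that they can be negative. The flags, a unit of their own, mark uneven, outlying, saturated and well-above-background spots, as deposited. The value table of the series, deposited by the authors, was on a linear intensity scale, without log or centring, and matched the total probe signal of the scanner files (largest difference 0). Its column medians were 0.0937, 0.104, 0.0777 and 0.0781. Whether the authors normalized further is not stated in these sources.

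Mouse probes numbered 3105, on 49880 spots per array. Spots flagged as uneven or outlying (4.05% ± 0.26) were left out and the rest of a probe averaged. Detection of a probe asked that the share of spots flagged well above background reach 0.5, and a miRNA was detected through any of its probes. Arrays were scaled to the mean of their 75th percentiles over the 502 probes detected on all 4 (346.7, 395.8, 248.3 and 343.4 units), and the probes of a miRNA were averaged. Values under 5.83, the highest of the arrays' lowest detected miRNA signals, were raised to it ahead of the log2 step. Shares used unscaled signals with negative values at 0. For a hairpin with a silent arm, the bound set the bright arm against the higher of the array's lowest detected probe and the silent arm's own signal. The number of arrays limits the precision.

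Seeds, positions and hairpins came from RefSeq tables (GRCm38.p6), which held sequences for 211 of the 264 miRNAs. The rest were counted alone in the families and left out of the clusters, and were joined by name in alternatives chosen after seeing the data. Of the 211 miRNAs with a sequence, 51 had another miRNA within 1 mismatch of a probe's target and 2 had an exact match. Those without a sequence could not be checked in this way. Host genes are those whose bounds hold the sequence. Calculations used Python 3.11.15 with pandas 2.3.3 and numpy 2.4.6. The normexp alternative used limma 3.58.1 in R 4.3.3, on the mean signal and median background of each spot. The calculation was tested on simulated data.

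Named are the 20 highest miRNAs, the 20 highest numbered below 1000, the 10 largest seed families by this count with up to 3 members each, the 6 widest hairpins on each side, the 4 nearest to equal and the 6 with the largest bound, the 2 highest members of each list, the 6 with the largest SD, the 5 dimmest and the 6 clusters with most detected arms. Further names were picked with their values in view, or to fill a group. The members, the 13 lists, written from general knowledge, and the alternatives were chosen with earlier results of these data known. The alternatives changed the detection rule, the spots kept, the summary of spots and probes, the background, the scaling, the floor, the sum behind shares, the cluster gap, and which array was left out. Interleukin-6 arrays were not used.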

Additional observations from a re-analysis of the deposited data

Results flagged for a closer look

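Of 109 values examined (levels, family shares, arm differences and summaries), 8 had an array standing apart from the other 3, by a gap to the nearest array, as part of the whole range, above Dixon's critical value for 4 samples. For independent values not chosen by their spread, chance alone gives about 1 in 20. The values here overlap and some were named for a large SD, so that rate is no measure for them. Array 4 was the one apart in 7 of the 8.

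miR-199a-3p had a gap of 0.842 of its range, with levels of 11.53, 11.54, 11.58 and 11.25 (log2) on arrays 1 to 4, and its share of the early-numbered signal a gap of 0.940 (4.36%, 4.39%, 4.39% and 3.76%). miR-23a-3p had one of 0.877 (11.33, 11.29, 11.30 and 11.06). For miR-15b-5p it was 0.951 (8.88, 8.85, 8.85 and 8.37) and for miR-365-3p 0.924 (9.84, 9.86, 9.83 and 9.54). In each of these array 4 was low. Array 4 was high for miR-6243, with a gap of 0.857 (11.14, 11.17, 11.33 and 12.48), and for miR-370-3p, with a gap of 0.891 (3.88, 3.78, 3.84 and 4.65). For miR-298-5p, one of the dimmest miRNAs, array 3 was high, with a gap of 0.840 (2.89, 2.83, 3.21 and 2.85).

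Over all 264 miRNAs, 17 levels met the same criterion, with array 4 apart in 12, array 3 in 4, array 1 in 1 and array 2 in 0.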

How the results depend on the processing

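For 7 summary values (the counts of miRNAs detected on all 4 arrays and on none, the shares of the 10 brightest and of the late-numbered miRNAs, the let-7 share, the hairpins with a brighter 5p arm and the clusters with a detected arm), the 3 shares moved by more than their spread between arrays under some settings, and the 4 counts stayed within 1.5 times of the value reported. With the brightest probe of each miRNA the 10 brightest held 80.8% and the late-numbered miRNAs 81.1%. With the normexp background these shares were 65.2% and 70.1%, and the let-7 share was 10.2%. Over the alternatives run for each value, between 234 and 298 miRNAs were detected on all 4 arrays and between 891 and 973 on none. Likewise 10 to 12 clusters had a detected arm. In 15 or 16 hairpins the 5p arm was brighter, a count that was not repeated under the other detection rules. Of 16 named arm differences, 14 moved by more than their SD with the brightest probe and 15 with normexp, and none changed sign under any setting run for them. The normexp offset by itself lowers the shares of bright miRNAs and narrows arm differences, and it cannot by itself change their sign. This setting also took another input signal, and the part of the offset in its moves was not separated. The moves under normexp are therefore no test of these results. The cause of the other moves was not tested either. No paired analysis was possible because a single group was described and no test was made.

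Intensities near background limit what is said of dim arms and silent miRNAs, and 54 of the 264 miRNAs rested on 1 detected probe. The spread covers 4 arrays of a cell line, and copies per cell were not measured.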
